A study of Homo sapiens with 8 samples.

Results

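The regions described here are the distal H3(Lys4) regions of PC3 cells that were called both in WT cells and after DAXX knockdown. They were chosen by their overlap between the H3(Lys4) lists, and by width and place, from the WT H3(Lys4) list. A region had to be under 3000 bp wide, had to lie more than 1 kb from every transcription start site (TSS) of a protein-coding gene, and had to share at least 1 bp with a region of the K/D H3(Lys4) list. The limits were met by 22025 regions, out of 56492 distal WT regions under 3000 bp, 72064 WT H3(Lys4) regions in all and 249824 peaks and regions in the 6 lists. They are called kept distal regions below. The other 34467 distal WT regions under 3000 bp had no K/D region on them and are called lost distal regions, where lost means not called in K/D cells and not shown to be empty.

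PC3 cells were established from a bone metastasis of a prostate cancer. ChIP-Seq was performed with antibodies to DAXX, to DNMT1 and to H3(Lys4) in 2 lines, PC3 with a stable lentiviral DAXX shRNA knockdown (K/D), which was grown under puromycin, and its counterpart with DAXX intact (WT). The labels call the counterpart wild type and the series text calls it a control shRNA line, so WT stands for either. The labels give the histone antibody as DMHH3(Lys4) without spelling out the prefix, so the degree of methylation is not stated here. Each list came from 1 library, whose tags join an old and a new run, and all lists of a line were called against the same input library of that line. With 1 library per group there was no replicate check and no test between K/D and WT cells. Intervals below are 95% exact binomial intervals (Newcombe intervals for differences of shares), which cover counting error over regions only, and regions of 1 library are not replicates.

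Nucleosomes carrying methyl groups on lysine 4 of histone H3 mark promoters and enhancers. At a distal enhancer the marked nucleosomes usually flank a stretch of open DNA where transcription factors sit, and such elements are much more specific to a cell type than promoters are. DAXX is a histone chaperone for the variant H3.3 and a transcriptional co-repressor without a DNA-binding domain of its own, and DNMT1 copies DNA methylation after replication. AP-1 (dimers of FOS and JUN proteins) opens many enhancers in epithelial cancer cells, and the element AGGTCA is bound by many nuclear receptors.

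To show what kind of sequence lies under these regions, the DAXX or DNMT1 peaks of 8 kept distal regions are printed below, from the GRCh37 genome (hg19), plus strand, 5′ to 3′. Capitals mark each match to the AP-1 element (TGACTCA or TGAGTCA, both strands) and to AGGTCA, which reads TGACCT on the other strand. In the 59759 windows of 100 bp to either side of a WT DAXX peak centre, 36.1% held the AP-1 element and 30.8% held AGGTCA. The first 3 are WT DAXX peaks with an AP-1 match that overlapped a K/D DAXX peak. They lie on regions near the top of the WT H3(Lys4) list and are examples, not an unbroken run of it. They lie 13970 bp from the nearest TSS of ZFP36L1 (chr14:69245642-69245814), 138028 bp from that of NR5A2 (chr1:200149981-200150153) and in an intron of TRIM9 (chr14:51473701-51473873). All 3 peaks reach past an edge of their kept distal region. The region on the NR5A2 side ends at position 200150016, so both elements marked in that peak lie outside it.
ZFP36L1 side: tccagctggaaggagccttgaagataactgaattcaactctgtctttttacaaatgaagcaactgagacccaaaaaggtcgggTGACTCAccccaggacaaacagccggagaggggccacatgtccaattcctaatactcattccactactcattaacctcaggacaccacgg
NR5A2 side: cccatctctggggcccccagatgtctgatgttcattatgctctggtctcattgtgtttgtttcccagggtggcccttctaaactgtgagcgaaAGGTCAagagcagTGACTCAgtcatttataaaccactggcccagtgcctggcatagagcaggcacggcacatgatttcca
TRIM9 intron: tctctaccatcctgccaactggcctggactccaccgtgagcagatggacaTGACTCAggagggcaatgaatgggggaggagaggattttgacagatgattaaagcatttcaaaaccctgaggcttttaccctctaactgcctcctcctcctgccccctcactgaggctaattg

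The next 2 peaks also overlapped a K/D DAXX peak but hold AGGTCA and no AP-1 element, and they were picked for that after the data were examined. They lie in introns of CAMK2G (chr10:75579731-75579903) and DNM3 (chr1:172291489-172291661).
CAMK2G intron: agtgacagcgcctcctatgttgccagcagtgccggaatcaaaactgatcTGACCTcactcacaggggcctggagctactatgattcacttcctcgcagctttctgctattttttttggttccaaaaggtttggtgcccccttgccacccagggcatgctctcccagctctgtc
DNM3 intron: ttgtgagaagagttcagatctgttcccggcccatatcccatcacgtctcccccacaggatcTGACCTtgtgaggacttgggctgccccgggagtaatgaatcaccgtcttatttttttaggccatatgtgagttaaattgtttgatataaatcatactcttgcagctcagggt

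The last 3 are given for contrast. One is the first WT DAXX peak on a kept distal region with no K/D DAXX peak (chr10:75949812-75949984, in an intron of ADK). Another is the first K/D DAXX peak on a kept distal region with no WT DAXX peak (chr14:71585946-71586116, 201077 bp from the nearest TSS of SIPA1L1). The last is a WT DNMT1 peak on a region with DNMT1 peaks in both lines (chr19:50117399-50117527, in an intron of PRR12). That region is not the first of its kind in the WT H3(Lys4) list.
ADK intron: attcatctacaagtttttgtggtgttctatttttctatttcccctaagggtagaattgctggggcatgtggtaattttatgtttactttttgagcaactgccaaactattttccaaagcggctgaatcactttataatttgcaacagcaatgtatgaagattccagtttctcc
SIPA1L1 side: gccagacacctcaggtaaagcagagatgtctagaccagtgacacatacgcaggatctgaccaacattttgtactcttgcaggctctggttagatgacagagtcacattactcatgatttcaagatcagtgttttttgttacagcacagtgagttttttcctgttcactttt
PRR12 intron: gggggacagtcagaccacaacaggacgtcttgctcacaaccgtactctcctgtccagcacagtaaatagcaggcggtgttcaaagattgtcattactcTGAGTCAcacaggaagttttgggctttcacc
The ADK and SIPA1L1 sequences hold neither element, and the PRR12 sequence holds 1 AP-1 match. A match is a description of the letters and not a bound site.

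The libraries held 12050101 to 18705056 tags. In K/D cells 15.07% of the H3(Lys4) tags and 6.83% of the DAXX tags lay in peaks, against 23.94% and 15.77% in WT cells, and the part of this gap in the loss of regions was not tested. H3(Lys4) regions within 1 kb of a TSS were found at all 5 epithelial markers (KRT8, KRT18, KRT19, EPCAM and CDH1) in both lines. The prostate luminal markers KLK2 and KLK3 had none. No region was found at 4 blood or 3 neuron markers, and of 3 liver markers TTR had one in K/D cells only.

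Of all WT H3(Lys4) regions, 45.8% shared sequence with a K/D region, and of the distal ones under 3000 bp 39.0% did, which are the regions described here. This count is what the selection rule fixed and is given as a description, like every K/D against WT value of the mark itself. For comparison, 66.64% of the WT regions under 3000 bp and within 1 kb of a TSS had a K/D region, and 85.31% of those of 3000 bp or more did. Near the limits, the closest kept distal region lay 1001 bp from a TSS while a kept region at 1000 bp was left out, and the widest was 2999 bp while 968 kept distal regions of 3000 bp or more were left out. The smallest overlap was 1 bp, and the closest lost distal region touched its K/D neighbour with a gap of 0 bp. A K/D region lay within 500 bp of 3874 lost distal regions (11.24%), and the median gap of the lost distal regions to a K/D region was 6365 bp.

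The chance of being kept went with the width of the WT region and with its place in the deposited list, where HOMER writes stronger peaks first. Of the 23127 distal regions of 501 bp, the smallest width HOMER reports here, 25.98% were kept. The share was 33.83% at 502 to 750 bp, 44.02% at 751 to 1000 bp, 54.89% at 1001 to 1500 bp, 64.37% at 1501 to 2000 bp and 71.90% at 2001 to 2999 bp. In 4 successive blocks of 25% of the WT list it was 62.79%, 49.76%, 34.94% and 22.32%. DAXX and DNMT1 were therefore also compared with width and place held equal, and AP-1 within width classes. The other comparisons of kept with lost regions were not matched for width or place. By chromosome the kept share ran only between 36.27% (chromosome 19) and 41.10% (chromosome 22).

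**Figure D1:**
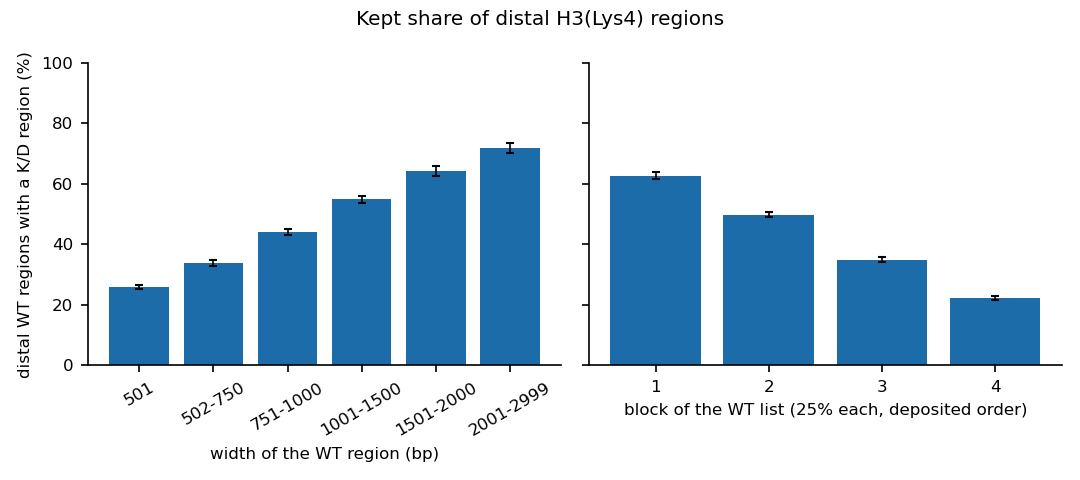
Share of distal WT H3(Lys4) regions under 3000 bp that shared at least 1 bp with a K/D region, in percent, by width of the WT region in bp (left) and by block of 25% of the WT list in deposited order (right), with 95% exact binomial intervals over regions. The share was 25.98% at 501 bp and 71.90% at 2001 to 2999 bp, and 62.79% in the first block and 22.32% in the last.

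The K/D counterpart usually covered only part of the WT region. Its summed width had a median of 744 bp in K/D cells, against 817 bp for the same regions in WT cells and 626 bp for the lost distal regions in WT cells. The order of the lines turned round when K/D regions had to cover at least 50% of the WT region, with 854 bp in K/D cells and 754 bp in WT cells. Of the kept distal regions 11137 (50.57%) were narrower in K/D cells, 8353 (37.93%) were wider and 2535 (11.51%) had the same width. The median share of a WT region covered by K/D regions was 62.08%, with 3129 regions (14.21%) covered in full and 691 (3.14%) to under 10%. A single K/D region lay on 21275 of them (96.59%). For 882 kept distal regions the K/D region also lay on another kept distal region, and its width was then counted for each. In all, 13.00 Mb of the 22.61 Mb of kept distal sequence carried the mark in K/D cells (57.53%).

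The kept distal regions at the top of the WT list came from few places. Of the first 100, 36 lay on chromosome 10, 18 on chromosome 14, 16 on chromosome 1 and 12 on chromosome 8, and none on chromosome 4, 6 or 9, although chromosome 6 had the most kept distal regions per Mb (8.87, against 6.73 on chromosome 10). Copy number was not measured here, and its part in the order of the list was not tested. The first of all lay in an intron of ADK, which encodes adenosine kinase (chr10:75948777-75951359), with 2228 bp of K/D regions on 2583 bp in WT cells. The next lay in an intron of the recombination gene RAD51B (chr14:69064692-69066915), with 501 bp in K/D cells, against 2224 bp in WT cells. Between CAMK2G and its neighbours (chr10:75647748-75649677) the widths were 1765 bp in K/D cells and 1930 bp in WT cells, and 91.45% of the region was covered. Near ZMIZ1, a transcriptional coactivator, 1 region had 501 bp in K/D cells, against 1285 bp in WT cells (chr10:80732083-80733367), while another, in an intron, had 1896 bp in K/D cells, against 1475 bp in WT cells (chr10:80830377-80831851). ZFP36L1, which encodes an RNA-decay factor, had 1 region in an intron with 2621 bp in K/D cells and 2790 bp in WT cells, and 1 beside the gene, of which 27.76% was covered, with 1699 bp in K/D cells and 2651 bp in WT cells. The second region of ADK had 628 bp in K/D cells and 2644 bp in WT cells, that of the actin linker VCL 1261 bp and 1943 bp, and that near PPIF 1136 bp and 1825 bp. Of these 10 regions only the one in the ZMIZ1 intron was wider in K/D cells.

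DAXX peaks, which the rule did not use, were found on many of these regions. A K/D DAXX peak lay on 4877 kept distal regions (22.14%, interval 21.60 to 22.70), where 17.0% of all WT H3(Lys4) regions had one, and on 4359 lost distal regions (12.65%, 12.30 to 13.00). A WT DAXX peak lay on 7372 kept distal regions (33.47%, 32.85 to 34.10), where 27.9% of all WT H3(Lys4) regions had one, and on 8263 lost distal regions (23.97%, 23.52 to 24.43). Both differences came to 9.50 percentage points. They behaved differently once width was held equal.

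For WT DAXX the difference was much smaller within width classes, with intervals above 0 only in the 2 narrowest (1.14 points at 501 bp and 2.22 points at 502 to 750 bp). At 501 bp 15.66% of kept and 14.53% of lost regions had a WT DAXX peak, at 1001 to 1500 bp 42.42% and 43.85%, and at 2001 to 2999 bp 66.44% and 68.24%. Over the 6 width classes the difference ran between -2.72 and 2.22 points, and over the 4 blocks of the list between 0.48 and 2.05 points with all 4 intervals including 0. When the lost regions were reweighted to the widths and list blocks of the kept ones, a step chosen after seeing the data, 34.25% of them had a WT DAXX peak, and kept minus lost came to -0.78 points. The sign of the difference thus changed with width.

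For K/D DAXX a smaller difference remained. At 501 bp 11.88% of kept and 7.66% of lost regions had a K/D DAXX peak (difference 4.23 points, interval 3.33 to 5.15), at 502 to 750 bp 16.87% and 10.78%, and at 751 to 1000 bp 19.36% and 14.91%. It was positive in all 6 width classes, between 2.48 and 6.09 points, though the intervals of the 2 widest included 0, and between 3.377 and 4.595 points in the 4 blocks of the list. After reweighting, 18.90% of the lost regions had a K/D DAXX peak, 3.25 points less than the kept regions. Kept regions were picked with a K/D list, and both K/D lists share an input library and a line, so the part of the K/D material itself was not tested. Regions called only in K/D cells (33766 distal regions under 3000 bp, at K/D widths) carried a K/D DAXX peak in 14.33% and a WT DAXX peak in 14.99%. By width class, kept distal regions (at WT widths) had a K/D DAXX peak in 11.88% at 501 bp, against 8.94% of those called only in K/D cells (at K/D widths), in 16.87% against 13.90% at 502 to 750 bp and in 19.36% against 19.63% at 751 to 1000 bp. In the 3 wider classes the kept regions had 25.88%, 34.59% and 46.40%, against 28.46%, 39.36% and 49.42%, so the order depended on width.

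**Figure D2:**
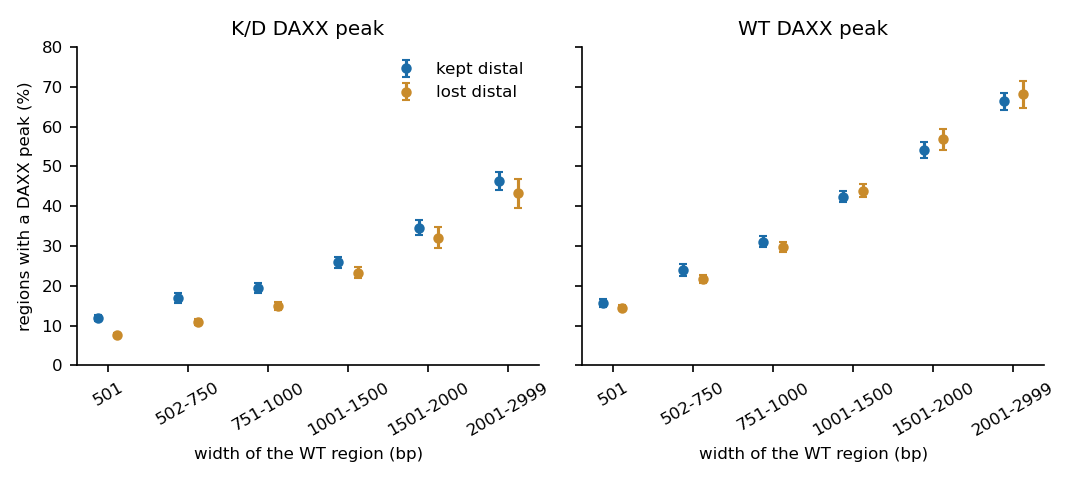
Share of distal H3(Lys4) regions with a K/D DAXX peak (left) and with a WT DAXX peak (right), in percent, by width of the WT region in bp, for kept (blue) and lost (ochre) distal regions with 95% exact binomial intervals over regions. Kept regions lie above lost ones in each width class of the left panel, by 2.48 to 6.09 points, and on either side of them in the right panel.

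By the 2 DAXX lists the kept distal regions fell into 4 classes. Peaks of both lines were on 3877 regions (17.60%), a WT peak only on 3495 (15.87%), a K/D peak only on 1000 (4.54%) and none on 13653 (61.99%). Among lost distal regions these shares were 10.23%, 13.75%, 2.42% and 73.61%. Most DAXX-bearing regions carried a single peak, and 283 held 2 K/D DAXX peaks while 667 held 2 WT DAXX peaks. Regions with DAXX in both lines were the widest in WT cells (median 1254 bp), and those without DAXX were the narrowest (704 bp). The first with DAXX in both lines, beside those of RAD51B, ZFP36L1 and ZMIZ1 above, lay near the nuclear receptor gene NR5A2 (1002 bp of mark in K/D cells and 2674 bp in WT cells) and near STMN2 (2287 bp and 2993 bp). The first with DAXX in K/D cells only were all narrower in K/D cells. They lay near SIPA1L1 (1796 bp in K/D cells and 2960 bp in WT cells), ZNF281 (1030 bp and 1826 bp), NID2 (1391 bp and 1985 bp), SLC12A2 (2250 bp and 2990 bp) and ZNF669 (1141 bp and 2553 bp). Among the first with no DAXX, the one in an intron of the acetyltransferase gene KAT6B was wider in K/D cells (2173 bp, against 1826 bp in WT cells) and the one in an intron of SFTPD narrower (884 bp, against 1769 bp).

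Within 751 to 1500 bp of WT width, the width of the mark in K/D cells differed between the classes. The K/D median was 793.5 bp on regions with DAXX in K/D cells only (378 regions, WT median 1004 bp), 772.5 bp with DAXX in both lines (1556 regions, WT median 1076 bp), 750.5 bp with no DAXX (5036 regions, WT median 962.5 bp) and 663 bp with DAXX in WT cells only (1584 regions, WT median 1057 bp). Regions that had a WT DAXX peak but no K/D DAXX peak had the narrowest K/D mark of the 4 classes, although their WT widths were close to those with DAXX in both lines.

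DAXX sat towards the middle of these regions and also in the gaps beside them. Of the K/D DAXX centres inside kept distal regions 63.81% lay in the middle 50% of the width, and of the WT DAXX centres 65.38% did. For lost distal regions these shares were 59.56% and 60.77%. At 751 to 1500 bp kept and lost regions were close, with 61.78% and 62.24% for K/D DAXX and 64.06% and 63.94% for WT DAXX. In regions of 751 to 1500 bp the count of DAXX centres was highest in the 200 bp just left of the centre, at 50.5 per 1000 regions for K/D DAXX and 89.4 for WT DAXX. It dipped at 300 bp right of the centre, to 27.5 for K/D DAXX and 48.4 for WT DAXX, and came up again at 500 bp to 41.2 and 57.2. A second crest at 500 to 700 bp from the centre falls near or just outside the edges of such regions. Lost distal regions of these widths had the same crests. Just left of the centre they had 42.1 for K/D DAXX and 89.5 for WT DAXX, and at 500 bp to the right 37.3 and 53.8. Of the kept distal regions with no K/D DAXX peak on them, 14.86% had a K/D DAXX centre within 500 bp of an edge, against 10.61% of the lost ones. For WT DAXX these shares were 20.52% and 16.54%.

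The position of the AP-1 element went with the width of the region. In kept distal regions of 1001 to 1500 bp the element was most frequent at the centre, with 73.7 matches per 1000 regions in the 100 bp centred 50 bp to the left, and fell to 25.8 at 450 bp to the left. The element came up again to 39.9 at 650 bp to the left and to 38.25 at 750 bp to the right. In kept distal regions of 501 bp, whose edges lie about 250 bp from the centre, it peaked outside the region, with 59.8 matches per 1000 regions at 350 bp to the left and 60.9 at 350 bp to the right, against 43.5 at 50 bp to the left and 27.5 at 150 bp to the left. Lost distal regions of 501 bp had 51.4 and 49.4 matches at these 2 outer positions. Those of 1001 to 1500 bp had 71.4 at 50 bp to the left and 39.7 at 650 bp to the left.

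**Figure D3:**
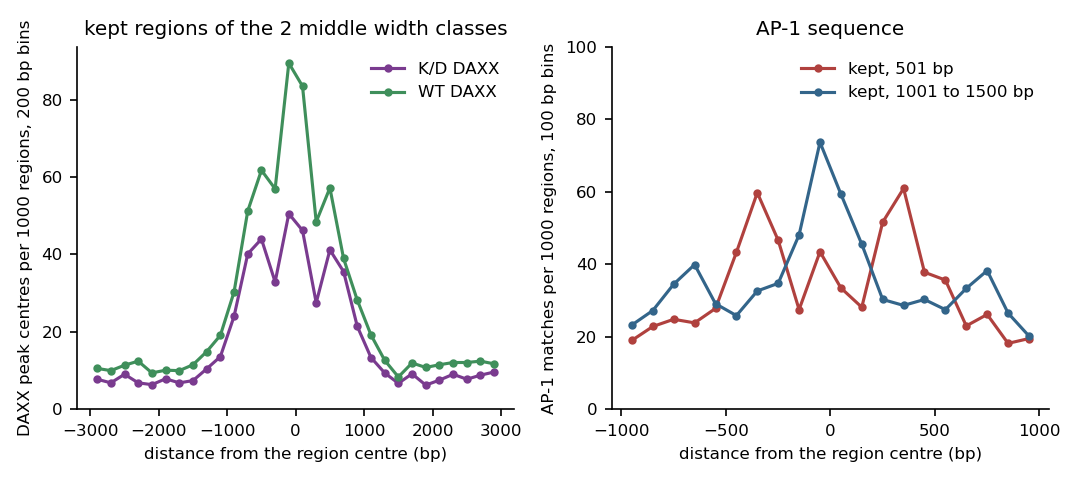
Left, K/D and WT DAXX peak centres per 1000 kept distal regions of 751 to 1500 bp, in 200 bp bins by distance from the region centre in bp. Right, AP-1 matches per 1000 kept distal regions in 100 bp bins, for regions of 501 bp and of 1001 to 1500 bp. Wider regions have their highest AP-1 crest at the centre (73.7) and the 501 bp regions have their highest crests 350 bp to either side (59.8 and 60.9).

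DAXX and the mark were compared peak by peak. Of the 8087 WT DAXX peaks on kept distal regions 4043 (49.99%, 48.90 to 51.09) overlapped a K/D DAXX peak, where 48.4% of all WT DAXX peaks did, so the share itself is close to that of all peaks. On lost distal regions 3685 of 8620 did (42.75%, 41.70 to 43.80), and for distal WT DAXX peaks on no H3(Lys4) region of either list 47.44% did. The share depended strongly on the place of the peak in the WT DAXX list. In its 4 blocks it was 85.80%, 59.87%, 38.02% and 20.25% on kept regions, against 84.25%, 53.92%, 31.29% and 15.13% on lost regions and 82.91%, 55.68%, 35.55% and 19.30% over all WT DAXX peaks. The difference was 1.55 points in the first block, with an interval that included 0 (-0.81 to 3.91), and 5.95, 6.72 and 5.13 points in the other 3, with intervals that did not.

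The sequence under a DAXX peak went with whether it was found again in K/D cells. AGGTCA was singled out for this from the 16 motifs searched after the data were examined. Of the WT DAXX peaks on kept distal regions that had a K/D DAXX peak, 36.06% held AGGTCA within 100 bp of the centre, against 17.66% of those that had none (difference 18.41 points, 16.51 to 20.29). In the 4 blocks of the WT DAXX list the shares were 44.12% and 19.84%, 33.05% and 17.98%, 30.14% and 17.53%, and 27.39% and 17.23%, so the difference was found within each block. Lost distal regions had the same pattern, with 38.29% and 21.28%. AP-1 showed a smaller difference, 42.81% against 34.69%, which came to 1.71 to 5.61 points within the blocks, and the intervals of the first and the third block included 0. Read the other way, 74.44% of the 806 WT DAXX peaks on kept distal regions with both elements had a K/D DAXX peak, 62.81% of the 1366 with AGGTCA alone, 48.58% of the 2328 with AP-1 alone and 40.54% of the 3587 with neither. Over all WT DAXX peaks these shares were 67.88%, 56.00%, 48.37% and 40.08%, in the same order of the 4 classes.

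Alu repeats carry AGGTCA between a G and the letters GGAG. That longer stretch was present in 3.70% of the AGGTCA-bearing peaks with a K/D DAXX peak and in 6.44% of those without, and after masking it the shares on kept distal regions were 34.80% and 16.64%. Longer forms known from particular receptors, which like the masking were looked at after the data were examined, were rare. TCAAGGTCA was in 0.668% of the peaks with a K/D DAXX peak and in 0.223% of those without, AAAGGTCA was in 5.42% and 1.98%, and a direct repeat of AGGTCA spaced by 1 base was in 3 of 4043 and 0 of 4044 peaks, a 0 that allows up to 0.0912% by the exact interval.

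**Figure D4:**
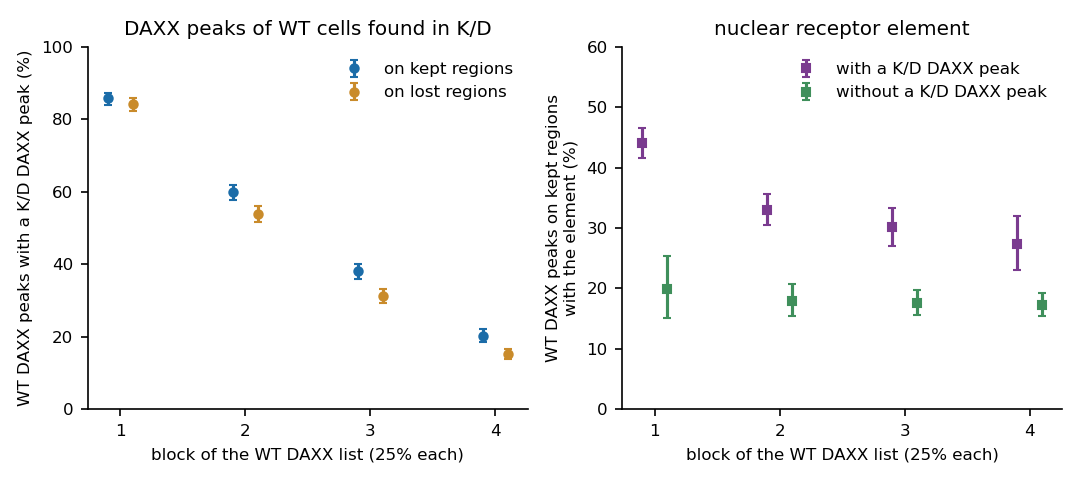
Left, share of WT DAXX peaks with a K/D DAXX peak, in percent, on kept (blue) and lost (ochre) distal H3(Lys4) regions, by block of 25% of the WT DAXX list. Right, share of WT DAXX peaks on kept distal regions that hold the nuclear receptor element within 100 bp of the centre, for peaks with and without a K/D DAXX peak (44.12% and 19.84% in the first block), with 95% exact binomial intervals.

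At the centres of the kept distal regions themselves the sequence was much like that of the lost ones. The AP-1 element lay within 100 bp of the centre in 8.46% of kept and 8.07% of lost regions, where 7.12% of all WT H3(Lys4) regions had it, and in 3.06% of the windows 5 kb away that lay on no H3(Lys4) region. This is 2.77-fold over those windows. No width class showed a difference whose interval lay off 0, and the order of kept and lost regions turned round under 3 alternatives, such as distances from the region centre (7.87% and 7.97%). The forkhead element TGTTTAC was in 4.52% of kept and 4.33% of lost regions (4.07% of all WT regions, 1.57-fold over the windows), and the ETS element (AGGAAGT or CGGAAGT) in 5.71% and 5.89% (5.72% of all). The SP/KLF element GGGCGG was in 4.31% and 3.79% (7.08% of all), the only one of 16 with an interval for kept minus lost wholly above 0 (0.19 to 0.86 points). The width of the regions was not held equal for this. Another 3 were lower in kept regions. The CTCF motif was in 0.0954% and 0.194% (0.147% of all), the E-box CACGTG in 1.68% and 2.16% (2.18% of all) and the ZEB/SNAI element CAGGTG in 13.0% and 14.1% (14.3% of all). AGGTCA, which marked the DAXX peaks found again, was in 12.06% and 12.54% of the centres (12.2% of all) and in 13.16% of the windows 5 kb away. The median GC content of these windows was 40.5% in kept and 41.5% in lost regions.

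DNMT1 peaks were rare on these regions. A K/D DNMT1 peak lay on 55 kept distal regions (0.250%, 0.188 to 0.325), where 0.197% of all WT H3(Lys4) regions had one, and on 42 lost distal regions (0.122%). A WT DNMT1 peak lay on 321 kept distal regions (1.46%, 1.30 to 1.63), where 1.14% of all WT regions had one, and on 307 lost distal regions (0.891%). After reweighting by width and list block the lost regions had 0.200% for K/D DNMT1 and 1.55% for WT DNMT1. For both lists the interval of kept minus lost included 0 within each width class and each list block. Of the 321 regions 229 (71.34%) also carried a WT DAXX peak, against 33.47% of all kept distal regions. Width was not held equal for this, and both kinds of peak were more frequent on wide regions. WT DNMT1 was on 0.466% of kept regions at 501 bp and 3.945% at 2001 to 2999 bp, and WT DAXX on 15.66% and 66.44%. Of the 321 regions 16 had DNMT1 peaks in both lines. Among these were the PRR12 intron region whose DNMT1 peak is printed above (501 bp of mark in K/D cells and 1871 bp in WT cells, DAXX peaks in both lines) and a region in an intron of CD58, a cell adhesion ligand (2322 bp in K/D cells and 2174 bp in WT cells). The others at the top of the list lay in an intron of CYRIB (501 bp and 1722 bp), near FGGY (1354 bp and 2536 bp) and near SPHKAP (982 bp and 2316 bp). The first WT DNMT1 regions lay in an intron of MARCHF10 (2476 bp in K/D cells and 2691 bp in WT cells), near NACA2 (1909 bp and 2786 bp), in an intron of NDUFAF6 (2496 bp and 2134 bp), near FBLN2 (639 bp and 2802 bp) and near TMEM92 (501 bp and 2810 bp).

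Kept distal regions lay in introns in 50.48% of cases, in intergenic sequence in 46.91% and on exons in 2.62%, against 49.61%, 47.60% and 2.79% for lost distal regions and 53.00%, 41.73% and 5.27% for all WT H3(Lys4) regions. The intron share of kept minus lost regions was 0.87 points (0.02 to 1.71), and with at least 50% of the WT region covered the shares were 49.98% and 49.94%. The median distance to the nearest TSS was 44375 bp, against 46663 bp for lost regions, and 30.44% were more than 100 kb away, against 31.76% of lost and 24.88% of all WT regions.

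The genes with the most kept distal regions nearest to them were mostly far from them. ADGRL3, an adhesion receptor, was nearest to 36, of which 7 had a K/D and 10 a WT DAXX peak, at a median distance of 797104 bp. NR2F1, an orphan nuclear receptor, was nearest to 31, against 21 lost distal regions, and of the 31 regions 10 had a K/D and 12 a WT DAXX peak. The TGF-beta receptor TGFBR2 had 27 (30 lost), the lysosomal enzyme AGA 27 (49 lost), the repressor ZEB2 26 (36 lost), the adhesion molecules NCAM2 and CNTNAP2 25 each (51 and 59 lost), the zinc-finger factor KLF6 25 (25 lost), the activin receptor ACVR2A 25 (38 lost) and the ephrin EFNA5 24 (49 lost). NR2F1 was the only one of these 10 with fewer lost than kept regions.

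Within 50 kb of a TSS, NEDD4L, a ubiquitin ligase for membrane channels, had the most kept distal regions of any gene (16, with 15 lost), followed by ANK3, a membrane skeleton adaptor (14 and 15). The count took in 50 kb around each start of a gene, so genes with starts far apart drew on more sequence, which was not held equal. The NEDD4L regions lay between positions 55684049 and 56032061 of chromosome 18, and those of ANK3 between 61856234 and 62375519 of chromosome 10. At NEDD4L the 16 K/D regions had a median of 1604 bp, against 699 bp for the 16 regions in WT cells. In 2 places a single K/D region joined a pair of WT regions there, as in the stretch of 3098 bp over WT regions of 1137 bp and 766 bp. At ANK3 13 K/D regions, of which 1 lay on a pair of kept distal regions, had a median of 628 bp, against 915.5 bp for the 14 in WT cells, and 5 regions had a K/D DAXX peak while 6 had a WT one.

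Some kept distal regions stood close together. When those less than 10 kb apart were joined, a distance chosen after seeing the data, 7597 (34.49%) lay in chains of 2 or more. The share was higher for lost distal regions, of which 41.38% lay in chains of lost regions. Among the kept distal regions 63 chains held 5 or more. The longest held 8 regions each. The chain in AKAP13, a protein kinase A anchor (chr15:85928084-85959956), carried 6 K/D regions with a median of 1381 bp, against 651.5 bp for its 8 regions in WT cells, and 2 of the K/D regions lay on a pair of WT regions each. The chain in and beside PRSS3, a trypsin (chr9:33764082-33800775), had 586 bp in K/D cells and 1129 bp in WT cells, with 2 wider and 5 narrower. The chain around FOXA2, a forkhead factor that can bind closed chromatin (chr20:22551362-22588724), had 735 bp in K/D cells and 754.5 bp in WT cells, with a K/D DAXX peak on 1 region and a WT DAXX peak on 2. A chain of 6 in ARHGAP29, which encodes a GTPase-activating protein (chr1:94686812-94726447), had no DAXX peak of either line, and its widest K/D mark was 3924 bp over a WT region of 2112 bp. A chain of 6 that lay 82488 bp from the nearest TSS, that of KLF6, had 4 regions with a K/D and 2 with a WT DAXX peak. Other chains of 6 or 7 spanned a TSS of LAMA3 or of KAZALD1, or lay 7725 bp from one of TEAD1, 9376 bp from one of VSIG1 and 225260 bp from one of UBE2E3.

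**Figure D5:**
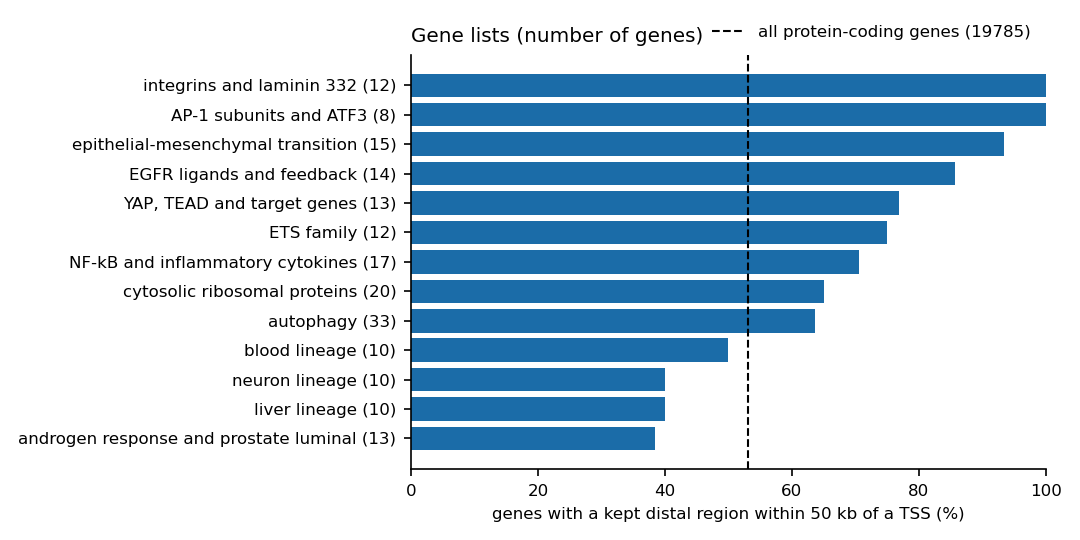
Share of the genes of each list with a kept distal region within 50 kb of a TSS, in percent, with the number of genes in brackets. The dashed line is the share of all 19785 protein-coding genes (53.1%), and the androgen response and luminal list stands at 38.46%, with 13 genes.

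Gene lists were counted as a description, beside the 53.1% of all 19785 protein-coding genes with a kept distal region within 50 kb of a TSS. A region that close to several genes was counted for each, so the nearest gene can be another one. A lost distal region lay that close to 65.25% of all genes and to every gene of the integrin and laminin, AP-1 and ETS lists. It did so for 93.33% of the epithelial-mesenchymal transition list and 92.86% of the EGFR list. High shares on these lists were thus not particular to kept regions. The lost share was below that of all genes for the autophagy (63.64%), blood (10.00%), liver and neuron lists (40.00% each). All 12 integrin and laminin genes had a kept distal region, with 12 at LAMA3, 7 at ITGA5 and 4 at ITGA3. LAMA3 encodes a chain of the laminin that anchors epithelial cells to their basement membrane, and ITGA5 and ITGA3 encode receptor chains for fibronectin and laminin. At LAMA3 no region had a K/D DAXX peak and 3 had a WT one. The 12 regions carried 10 K/D regions, 2 of them on a pair each, and widths ran between 501 and 3341 bp in K/D cells and between 501 and 1627 bp in WT cells. At ITGA5 the mark was narrower in K/D cells on 6 of 7, with medians of 1074 bp in K/D cells and 1607 bp in WT cells, and 3 regions had a K/D DAXX peak as did 3 for WT DAXX. ITGA5 was the nearest gene of 4 of the 7, and the others lay in ZNF385A.

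All 8 genes of AP-1 subunits and ATF3 had a kept distal region within 50 kb, with 5 at FOSB, 4 at FOSL2 and 4 at JUN. The 4 at JUN had medians of 1268 bp in K/D cells and 1440 bp in WT cells, and the 5 at FOSB 501 bp and 629 bp. Of 15 genes of the epithelial-mesenchymal transition 14 had one, led by ZEB2 and the cadherin CDH2 with 6 each. The 6 at ZEB2 carried 5 K/D regions, of which 1 lay on a pair, with a median of 1387 bp, against 956.5 bp in WT cells. The 6 at CDH2 had medians of 641.5 bp in K/D cells and 645.5 bp in WT cells.

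Of 14 genes of EGFR, its ligands and feedback regulators 12 had one. EGFR itself, the receptor of epidermal growth factor, had 9, of which 7 lay in its introns, and its ligand TGFA and the phosphatase DUSP4 had 4 each. The widest of the EGFR regions in WT cells (chr7:55092527-55095092) had 501 bp in K/D cells, against 2566 bp in WT cells, and no DAXX peak. The widest in K/D cells (chr7:55131536-55132959) had 2279 bp, against 1424 bp in WT cells, and DAXX peaks of both lines. Of 13 genes of the YAP and TEAD pathway 10 had one, with 11 at TEAD1, the DNA-binding partner of YAP, and 4 each at its target genes CCN1 and CCN2. At TEAD1 4 regions had DAXX peaks in K/D cells and 4 in WT cells, and medians were 711 bp over the 11 K/D regions on them, of which 1 lay on a pair, and 1147 bp over the 11 regions in WT cells. Of 12 ETS factors 9 had one, with ETS1 and ETS2 at 4 and ELF3 at 3, and ERG, ETV5 and ELK3 had none.

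Of 17 NF-kB and cytokine genes 12 had one, led by the apoptosis inhibitor BIRC3 with 6 and by the cytokines CXCL8 and IL1B with 5 and 4. The CXCL8 regions had a median of 501 bp in K/D cells and 947 bp in WT cells, none was wider in K/D cells, and 2 had a K/D and 3 a WT DAXX peak. Of the autophagy genes, the pathway the study dealt with, 21 of 33 (63.64%, interval 45.12 to 79.60) had one. Within 10 kb the order against all genes turned round, with 18.18% of autophagy genes and 19.70% of all genes. The kinase gene ULK1 and the lipid kinase adaptor gene ATG14 had 4 each, and ATG5, which encodes part of the conjugation machinery, had 3. All 4 regions within 50 kb of ATG14 had a WT DAXX peak and 1 had a K/D one, with medians of 1478 bp in K/D cells and 1166 bp in WT cells. ATG14 was the nearest gene of only 2 of these, 1 of them in an intron of FBXO34, and TBPL2 was nearest to the others. Within 50 kb of ULK1 2 of 4 had DAXX in each line, with medians of 740.0 bp in K/D cells and 765.5 bp in WT cells. ULK1 was the nearest gene of only 2 of the 4, and MMP17 was nearest to the others. BECN1, ATG12, MAP1LC3B, SQSTM1 and MTOR were among the 12 with none.

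Of 20 cytosolic ribosomal protein genes 13 (65.00%) had a kept distal region, with 4 at RPS14. Within 10 kb the ribosomal share was 10.00%, below the 19.70% of all genes. Of 13 androgen response and luminal genes 5 (38.46%) had one (3 at ACP3, 2 each at FKBP5 and HOXB13), and KLK2, KLK3 and TMPRSS2 were among those with none. The share of this list against all genes turned with the distance, to 38.46% against 19.70% within 10 kb and 69.23% against 72.23% within 100 kb. Of the blood genes 5 of 10 did, with 3 at PTPRC, and of the liver and neuron genes 4 of 10 each. WT regions within 1 kb of a TSS, which the rule left out, were present at 58.06% of all genes, at 9 of the 12 genes of the integrin and laminin list, 46.15% of the androgen list, 10.00% of the blood list and none of the liver list.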

How the data were processed

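Peak lists from 6 immunoprecipitations in 8 samples of human PC3 cells were analysed, with 1 library per group. The 2 inputs have no list of their own here. Per the labels and the study's methods, base calling used CASAVA 1.8.2, alignment to hg19 used Bowtie2 2.1.0 and peak calling used HOMER 4.6. As the file headers state, H3(Lys4) regions were stitched from 500 bp peaks in the histone style, at a 4.00-fold excess over input with a Poisson p-value limit of 0.0001, and DAXX and DNMT1 peaks were called in the factor style at an FDR of 0.001. The score column that the authors deposited holds the value 1 for every peak, so only the deposited start and end positions were used and strength was read from the order of the list. The lists hold no signal per region, and a region just under a limit counts as lost.

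The analysis took in chromosomes 1 to 22, X and Y and left out 113 peaks on other contigs. Distances ran from the nearest edge to 63781 starts of basic protein-coding transcripts of 19785 genes (GENCODE release 44 mapped to GRCh37). A peak lay on a region when they shared 1 bp. Intervals are exact binomial (Clopper-Pearson) or Newcombe intervals at 95%. Both strands of the 100 bp to either side of a centre were searched for 16 motifs. The code was tested on simulated data. Python 3.11.15, pandas 2.3.3, scipy 1.17.1 and pysam 0.24.0 were used.

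The regions, the 13 gene lists (187 genes) and the comparisons were chosen with earlier results of these data known. Named were the first 10 regions of the WT list, the first 5 of each DAXX and DNMT1 subset, the 10 genes nearest to the most regions and the 3 genes with the most regions in each list, with ties taken in list order. Some genes that this rule or the marker check takes in are not reported here. Loci beyond these (NEDD4L, ANK3 and the chains) were named after their values were seen. Alternatives covered overlap, distance, width, list depth, peak placement and motif window.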

Additional observations from a re-analysis of the deposited data

How the results depend on the processing

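The number of kept distal regions was 13908 when K/D regions had to cover at least 50% of the WT region and 8524 when the first 50% of each H3(Lys4) list was used, and the other alternatives to this count stayed within 1.5 times of it. Of 59 values under alternatives 18 stayed and 41 moved. To stay, a value had to lie within the interval of the value given above. For the number of regions, which has no interval, it had to lie within 1.5 times. No paired analysis was possible because each group has 1 library, and no replicate could be left out. With at least 50% covered, K/D and WT median widths were 854 and 754 bp, so the order of the lines turned round, K/D DAXX was on 20.95% (other distal regions 14.85%), WT DAXX on 29.21% (other distal regions 27.18%) and WT DNMT1 on 1.19% of the regions, AP-1 on 7.41% (other distal regions 8.48%, so the order turned round), and 53.11% of the WT DAXX peaks had a K/D peak. With the first 50% of each H3(Lys4) list these were 1057 and 1252 bp, 31.17%, 45.08%, 2.43% and 52.28%, AP-1 was 8.76% (other distal regions 9.14%, again turned round), with a median TSS distance of 39942 bp. With distances from the region centre the widths were 781 and 891 bp, K/D DAXX 21.20%, WT DAXX 31.98%, AP-1 7.87% (other distal regions 7.97%, turned round), introns 53.52% and the median distance 35649 bp. With a distal limit of 5 kb the K/D width was 707 bp, WT DAXX 34.25%, introns 48.19% and the distance 55238 bp. With no width limit the widths were 763 and 848 bp, K/D DAXX 23.75%, WT DAXX 35.43% and WT DNMT1 1.68%. With a peak centre inside or within 500 bp of the edges, K/D DAXX was 33.72%, WT DAXX 47.12%, WT DNMT1 2.20% and the share of WT DAXX peaks with a K/D peak 53.14%, and with the first 50% of each DAXX list it was 55.21%. AP-1 was in 19.22% with a window of 250 bp to either side and in 30.56% of whole regions. Of all genes 19.70% had a kept distal region within 10 kb and 72.23% within 100 kb, and 13 of 26 gene list values moved. The androgen list was above all genes within 10 kb and below them within 50 and 100 kb. The autophagy and ribosomal lists were below all genes within 10 kb and above them within 50 and 100 kb. The blood list was below all genes within 50 kb only. The lists give no tag counts per region, so the depth behind a single region is unknown, and a mark below the K/D limits cannot be told apart from an absent one.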
